A study of Mus musculus with 25 samples.

Results

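The genes described here are those of the cytochrome P450 families 1, 2 and 4, chosen by name: every gene whose probe set carried a single symbol beginning Cyp1, Cyp2 or Cyp4 followed by a letter. The rule found 51 genes among the 18193 measured, 3 of family 1, 35 of family 2 and 13 of family 4, in 18 subfamilies. Their RNA was measured on whole-genome arrays in whole livers of C57/B6 mice. The 14 stages ran from E11.5, the embryonic day 11.5, through Day0, the day of birth, to adults of 18 weeks. All embryos and mice carried the same background and no transgene or treatment is named. Each stage was 1 pool. It held 12 livers for E11.5, 9 for each of E12.5 and E13.5, 6 for each of E14.5 and E15.5, and 3 for the later stages. The labels do not give the sex of the animals. At 11 stages the pool was put on 2 arrays, which repeat the measurement and not the animals, while only 1 array was made for E18.5, for Day7 and for Day14, 25 in total. For the comparisons between ages the pools were grouped as early fetal (E11.5 to E14.5), late fetal (E15.5 to E18.5), suckling age (Day0 to Day14), and Day21 with the adult.

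Cytochromes P450 are heme enzymes of the endoplasmic reticulum that insert oxygen into their substrates with electrons delivered by a partner reductase. Families 1 and 2 act mainly on drugs, pollutants, steroids, retinoids and polyunsaturated fatty acids, and family 4 mainly hydroxylates fatty acids and related lipids at the end of the chain. The adult liver is their main site, and nuclear receptors, the aryl hydrocarbon receptor and the pulse pattern of growth hormone are known to control many of them there. Mouse P450 genes of a subfamily usually lie in clusters of close copies.

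Levels are log2 of the deposited intensity, so 1 unit is a 2-fold difference. Repeat arrays of a stage differed by a standard deviation of 0.111 to 0.216 units over all genes, and the median of an array lay between 5.41 and 5.53. The scale of a probe set is its own, so levels are compared between stages and never between genes. The markers of hepatocytes were present in every pool, with albumin (Alb) between 12.7 and 14.5. The mean of 7 hepatocyte markers rose from 10.2 at E11.5 to 12.0 at E15.5 and 13.1 at E18.5, while that of 10 red cell markers fell from 10.3 at E18.5 to 6.49 in the adult pool. In whole liver, fewer hepatocytes cannot be told apart from less RNA per hepatocyte. The E18.5 pool also carried RNA of skeletal muscle, with a mean of 7.27 over 6 of 6 muscle markers against 5.13 to 5.60 at every other stage.

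The promoters of 5 members are printed because their onsets, given in the following paragraphs, run from E15.5 to Day0. Cyp2c70 and Cyp2d10 share E17.5. Sequences are those of RefSeq on GRCm38.p6, 250 bases before the transcription start and 50 after it, and 38 of the 51 members had an entry. Capitals mark the letters TATAAA of the TATA box, on either strand. In Cyp2d26 they also mark GTTAAT, a half-site of the liver factor HNF1, and in Cyp2c70 CAAAGTCCA, a site of the liver receptor HNF4. Of these promoters only that of Cyp2e1 has TATAAA in the direction of the gene. In Cyp2d26, Cyp2c70, Cyp2d10 and Cyp2d9 the capitals TTTATA are TATAAA on the opposite strand, a match of letters only. The windows are chr15:82794196-82794495 (minus strand) for Cyp2d26, chr19:40187237-40187536 (minus strand) for Cyp2c70, chr15:82407145-82407444 (minus strand) for Cyp2d10, chr7:140763569-140763868 (plus strand) for Cyp2e1 and chr15:82452127-82452426 (plus strand) for Cyp2d9.
Cyp2d26: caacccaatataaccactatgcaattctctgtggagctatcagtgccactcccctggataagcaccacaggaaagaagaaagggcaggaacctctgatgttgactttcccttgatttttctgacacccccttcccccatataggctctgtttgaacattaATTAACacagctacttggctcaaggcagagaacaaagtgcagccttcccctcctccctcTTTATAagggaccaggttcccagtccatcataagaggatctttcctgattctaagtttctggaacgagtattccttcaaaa
Cyp2c70: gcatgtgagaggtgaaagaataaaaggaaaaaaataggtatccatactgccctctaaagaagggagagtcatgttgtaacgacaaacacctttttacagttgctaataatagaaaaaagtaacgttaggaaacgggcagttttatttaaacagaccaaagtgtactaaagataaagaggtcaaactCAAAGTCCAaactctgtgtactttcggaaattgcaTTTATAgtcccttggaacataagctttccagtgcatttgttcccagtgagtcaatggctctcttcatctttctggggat
Cyp2d10: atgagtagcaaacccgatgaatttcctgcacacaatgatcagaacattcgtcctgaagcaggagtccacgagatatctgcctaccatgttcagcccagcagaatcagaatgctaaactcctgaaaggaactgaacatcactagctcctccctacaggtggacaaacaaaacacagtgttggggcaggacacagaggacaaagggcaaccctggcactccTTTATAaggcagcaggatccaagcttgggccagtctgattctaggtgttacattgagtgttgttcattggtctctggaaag
Cyp2e1: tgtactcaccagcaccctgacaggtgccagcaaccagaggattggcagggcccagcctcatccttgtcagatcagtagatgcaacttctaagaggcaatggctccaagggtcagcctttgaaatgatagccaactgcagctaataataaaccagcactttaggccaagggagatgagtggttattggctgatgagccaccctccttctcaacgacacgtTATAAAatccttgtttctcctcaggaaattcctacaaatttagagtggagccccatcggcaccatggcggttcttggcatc
Cyp2d9: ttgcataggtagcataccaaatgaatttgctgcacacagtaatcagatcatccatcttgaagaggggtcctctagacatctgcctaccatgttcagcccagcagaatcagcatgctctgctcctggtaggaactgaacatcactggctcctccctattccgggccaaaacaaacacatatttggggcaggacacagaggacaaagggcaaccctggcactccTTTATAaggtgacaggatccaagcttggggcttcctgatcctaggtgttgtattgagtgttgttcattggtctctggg

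A second pair is printed because these neighbouring genes, Cyp2b13 at chr7:26061245-26061544 (plus strand) and Cyp2b9 at chr7:26173159-26173458 (plus strand), have nearly one promoter and unlike timing. Capitals mark the bases that differ.
Cyp2b13: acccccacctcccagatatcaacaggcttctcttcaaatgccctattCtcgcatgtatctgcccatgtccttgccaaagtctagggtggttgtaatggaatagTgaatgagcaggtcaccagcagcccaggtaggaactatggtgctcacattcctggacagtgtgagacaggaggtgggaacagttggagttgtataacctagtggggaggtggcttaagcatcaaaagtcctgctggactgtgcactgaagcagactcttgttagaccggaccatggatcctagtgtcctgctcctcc
Cyp2b9: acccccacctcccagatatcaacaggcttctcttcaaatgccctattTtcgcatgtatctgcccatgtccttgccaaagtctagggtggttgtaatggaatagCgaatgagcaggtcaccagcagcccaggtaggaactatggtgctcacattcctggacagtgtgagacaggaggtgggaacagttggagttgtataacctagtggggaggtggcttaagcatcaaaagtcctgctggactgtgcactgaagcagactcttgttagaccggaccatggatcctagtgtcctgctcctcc
They were identical at 298 of 300 bases (99.3%), and the differences were C48T and T104C, with the base of Cyp2b13 first and positions counted from the first base printed, which places them at -203 and -147 from the start.

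In this window TATAAA was found on either strand in 11 of the 20 promoters of members with an onset (55%) and in 14.2% of 27025 genes. Between -40 and -20, where a TATA box usually lies, it was found on either strand in 9 of 20 (45%) against 2.75% of all genes. In the direction of the gene these were Cyp1a1, Cyp1a2, Cyp2a12, Cyp2c55 and Cyp2e1. On the opposite strand, where the letters alone do not make a TATA box, they were Cyp2c70, Cyp2d10, Cyp2d26 and Cyp2d9. The strands were not counted apart over all genes. These 9 genes had onsets from E15.5 to Day14. The 5 promoters printed first are all among them, while those of Cyp2c68 and Cyp2f2, with onsets at E16.5 and E18.5, are not. The HNF4 letters were found in Cyp2c68 and Cyp2c70 (10% of 20 against 0.477%), both of late fetal onset, and the HNF1 letters in Cyp2c68 and Cyp2d26 (10% against 7.2%). The C/EBP letters TTGCNNAA were found in 4 of 20 (20% against 10.8%), and AGGTCA, a nuclear receptor half-site which can overlap the HNF4 letters, in 6 of 20 (30% against 16%). The AHR core GCGTG occurred in 4 of 20 (20% against 32.5%) and the STAT5 letters TTCNNNGAA in 0 of 20 against 8.47%. Family members share sequence, so these promoters are not independent of each other.

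Over the 14 stages 27 of the 51 members reached a stage mean of at least 7 with a range of at least 2 units, and onset is given for these as the first stage that reached the midpoint between their lowest and highest stage mean. No member had its onset in the early fetal pools, 9 had it in the late fetal pools, 14 at suckling age and 4 at Day21 or in the adult. The first was Cyp2d26 at E15.5, followed by Cyp2c68 at E16.5 and by Cyp2c23, Cyp2c70 and Cyp2d10 at E17.5. Cyp2a12, Cyp2e1, Cyp2f2 and Cyp4a14 followed at E18.5 and Cyp2d9, Cyp4a31 and Cyp4f15 at Day0. Cyp2b9, Cyp2c37 and Cyp2d22 began at Day3, Cyp1a1, Cyp1a2, Cyp2c50, Cyp2j5 and Cyp4v3 at Day7, and Cyp2c29, Cyp2c54 and Cyp2c55 at Day14. Cyp2b13, Cyp2d13 and Cyp4f14 came last before the adult, at Day21, and Cyp4a12a in the adult alone. The highest stage was the adult pool for 10 of the 27 and Day21 for another 10. Without E18.5 the count of late fetal onsets was 5 in place of 9, and it was 18 at 25% and 4 at 75% of the range. Cyp2d22 at Day0 (7.53) lay just short of its midpoint, and on its second probe set the onset would be Day0. Cyp2c54 passed its midpoint on the single Day14 array (9.57), was below it at Day21 (9.09) and above it in the adult. The second probe set of Cyp4v3, at 5.09 at Day7 and 5.91 at Day14, would place its onset at Day21.

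**Figure D1:**
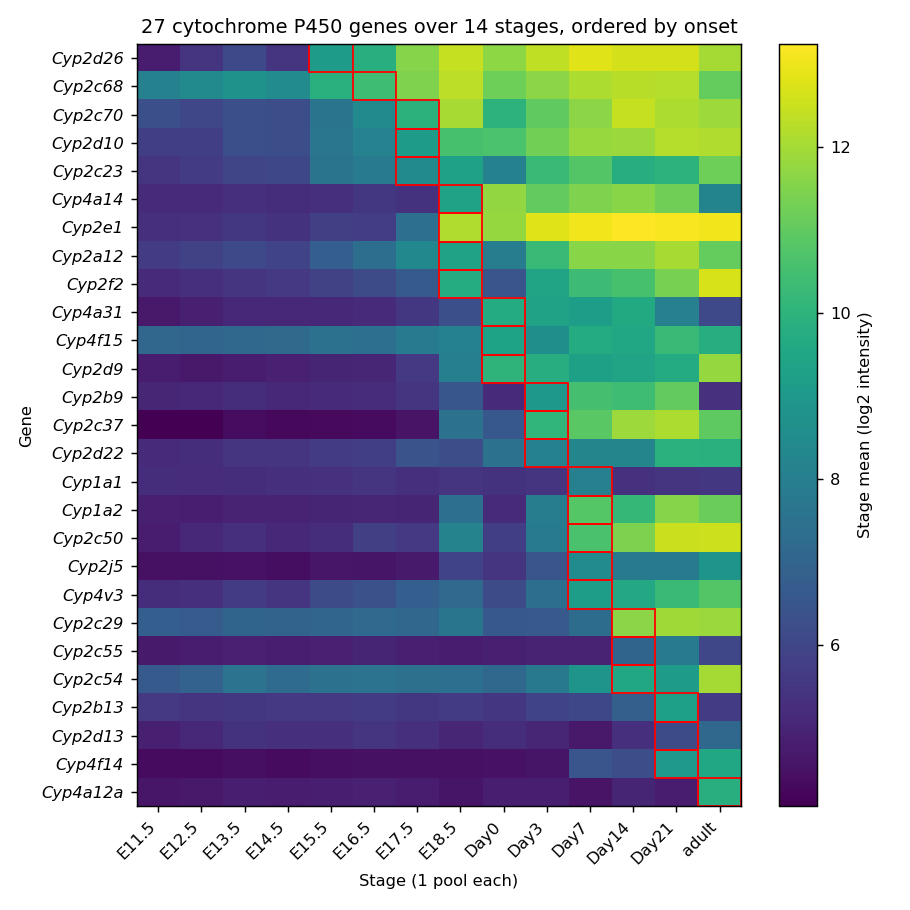
Stage means (log2 intensity, colour) of the 27 members with an onset, in rows ordered by onset, over the 14 stages in columns. Red frames mark the onset, from Cyp2d26 at E15.5 to Cyp4a12a in the adult; colours may be compared along a row only.

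Onsets differed within Cyp2c and within Cyp2d, while Cyp1a1 and Cyp1a2 shared Day7. That of Cyp1a1 rests on the single Day7 array, at 8.07 against 5.35 at Day14, where Cyp1a2 stood at 10.83 and 10.18. In Cyp2c, 8 of 11 members had an onset and these ran from E16.5 to Day14; in Cyp2d, 5 of 8 ran from E15.5 to Day21. On the reference the genes Cyp2c37, Cyp2c54, Cyp2c50 and Cyp2c70 follow each other with onsets at Day3, Day14, Day7 and E17.5, and Cyp2d10 is followed by Cyp2d9 with E17.5 and Day0. The promoters of Cyp2c37 and Cyp2c50 were identical at 263 of 292 aligned bases (90.1%) and those of Cyp2d10 and Cyp2d9 at 251 of 296 (84.8%). Across the 14 stages the median Pearson correlation of 2 members was 0.76 for 44 pairs within a subfamily and 0.73 for 307 pairs between subfamilies. These pairs share the same pools and a common rise with age.

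The other 24 members stayed low or flat, with highest stage means from 4.33 to 8.20, and 14 of them varied by less than 1 unit. They included Cyp1b1, an enzyme mostly found outside the liver (5.14 to 6.44), Cyp2s1 (6.52 to 7.06), Cyp2u1 (5.01 to 6.14), Cyp4b1 (5.39 to 6.88) and Cyp2b10, known for its induction through the receptor CAR (5.20 to 6.66). Cyp2c38 lay between 7.14 and 8.20 at all stages without an onset. Cyp2r1, which hydroxylates vitamin D at its side chain, did not reach 7 but stood at 4.01 to 4.81 up to Day14, at 5.75 at Day21 and at 6.55 in the adult. Of the 51 members Cyp2d13 and Cyp4f41-ps are annotated as transcribed pseudogenes.

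The first comparison set the 6 pools from birth on against the 8 fetal pools, to ask which members differed across birth as a whole. Postnatal pools had 21 of 51 members higher and none lower (limma; p under 0.05 after Benjamini-Hochberg adjustment over all genes, with at least 1 unit of difference), where 5.01% of all genes were higher and 4.5% lower. The median difference was 0.91 over the members and 0.01 over all genes, and 33 members had an unadjusted p under 0.05. By subfamily these were 6 of 11 Cyp2c, 4 of 8 Cyp2d, 2 of 3 Cyp4a, 2 of 7 Cyp4f, 1 of 2 Cyp1a, 1 of 4 Cyp2b, 1 of 5 Cyp2j and the measured genes of Cyp2a, Cyp2e, Cyp2f and Cyp4v. Stages served as the replicates of an age class, so their spread includes development within it. The classes were not balanced in sex-linked RNA. The Y-linked Eif2s3y was at least 6.51 on the arrays of E12.5, E13.5, E16.5, E17.5 and the adult and at most 5.19 on all others. The part of this in the comparison was not tested.

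Cyp2e1, which oxidises ethanol and activates paracetamol, differed most. Its stage means ran from 5.34 to 12.15 with a median of 5.64 in fetal pools and from 11.80 to 13.25 with a median of 13.05 in postnatal pools. The E18.5 pool lay inside the postnatal range and all other fetal pools far below it. The difference was 6.26 ± 0.92 units (SE, 6 and 8 pools; 76.4-fold; limma, adjusted p = 0.00083). Cyp2c37, which acts on arachidonic acid, followed with 5.75 ± 0.80 (53.8-fold) and Cyp4a14, a fatty acid hydroxylase under PPARA, with 5.07 ± 0.71 (33.6-fold). Cyp2d9, a testosterone hydroxylase of male mouse liver, stood 4.66 ± 0.53 higher and Cyp2c50, an arachidonic acid epoxygenase, 4.51 ± 0.99 higher.

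Pools of the 2 classes did not overlap for 6 members, all higher after birth, against 2.52% of all genes with that pattern. They were Cyp2d9, Cyp2d10, Cyp2d22, Cyp4f14, Cyp4f15 and Cyp2j9, the last of which was below the size for a call (0.38 ± 0.10). The highest fetal and lowest postnatal stage means lay close for Cyp2d10 (10.58 and 10.63), Cyp4f14 (4.48 and 4.50) and Cyp2j9 (4.55 and 4.57). Single arrays of these genes did overlap between the classes. Cyp2d22 stood between 5.18 and 6.40 in fetal pools and between 7.53 and 9.92 afterwards (2.99 ± 0.37), and Cyp4f15 between 7.05 and 8.08 and between 8.62 and 10.23 (2.12 ± 0.23). Calls of 4 members were lost when single pools were left out. Cyp2b9 (3.23 ± 0.89) was not called without Day14 (2.87) or Day21 (2.74). Cyp2c54 (1.77 ± 0.57) lost its call without any 1 of 10 pools (1.67 to 1.82), these being E11.5 to E17.5, Day7, Day14 and Day21. Cyp2c68 (2.02 ± 0.63) lost it without any 1 of E11.5 to E15.5, Day3, Day7, Day14 or Day21 (1.79 to 2.05), and Cyp4f14 (2.31 ± 0.70) without any 1 of E12.5 to E15.5, Day7, Day14, Day21 or the adult (1.75 to 2.41). Centring on the hepatocyte markers ended the calls of Cyp4f14 (0.63), Cyp4f15 (0.44), Cyp2c68 (0.34) and Cyp2c54 (0.090). Quantile scaling ended that of Cyp2c54 (1.74), and the plain probe set that of Cyp4v3 (1.73 in place of 2.87). Without the 3 stages that have 1 array Cyp2b9 (2.46), Cyp2c54 (1.72) and Cyp4f14 (2.51) were not called.

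Before birth, late fetal pools were set against early fetal ones. Members were higher for 5 of 51 and lower for none, against 1.93% and 3.53% of all genes. All 5 belong to Cyp2c and Cyp2d. Cyp2d26, a hepatic member of the debrisoquine hydroxylase subfamily, stood at 4.76 and 4.84 on the arrays of E11.5, at 5.30 and 5.55 at E12.5, at 6.01 and 6.12 at E13.5 and at 5.38 and 5.59 at E14.5. It then stood at 9.09 and 9.19 at E15.5, at 9.73 and 9.98 at E16.5, at 11.52 and 11.63 at E17.5 and at 12.43 at E18.5. No late fetal array came near an early one. The difference was 5.30 ± 0.61 units (SE, 4 and 4 pools; 39.5-fold; limma, adjusted p = 0.0011).

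Cyp2c70, which makes the muricholic acids of mouse bile, rose from 5.90 to 6.46 on early fetal arrays through 7.38 and 7.77 at E15.5 to 12.05 at E18.5 (3.28 ± 0.80, adjusted p = 0.021 by limma). Cyp2d10 (2.85 ± 0.51), Cyp2c68 (2.58 ± 0.46) and the epoxygenase Cyp2c23 (2.49 ± 0.54) were the other called members. Cyp2c70 lost its call without E12.5 (3.21) or E17.5 (3.13), and Cyp2c23 with E15.5 counted as early fetal (2.36). With E14.5 counted as late fetal none of the 5 was called, Cyp2d26 then differing by 4.26 (adjusted p = 0.14, limma). When each array was instead centred on its hepatocyte markers, which rose over the same days, Cyp2d26 (3.21) and Cyp2c70 (1.19) were still higher and called, Cyp2d10 (0.76), Cyp2c68 (0.49) and Cyp2c23 (0.40) were higher and not called, and 36 members were called lower, with the median of all genes at -2.07.

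**Figure D2:**
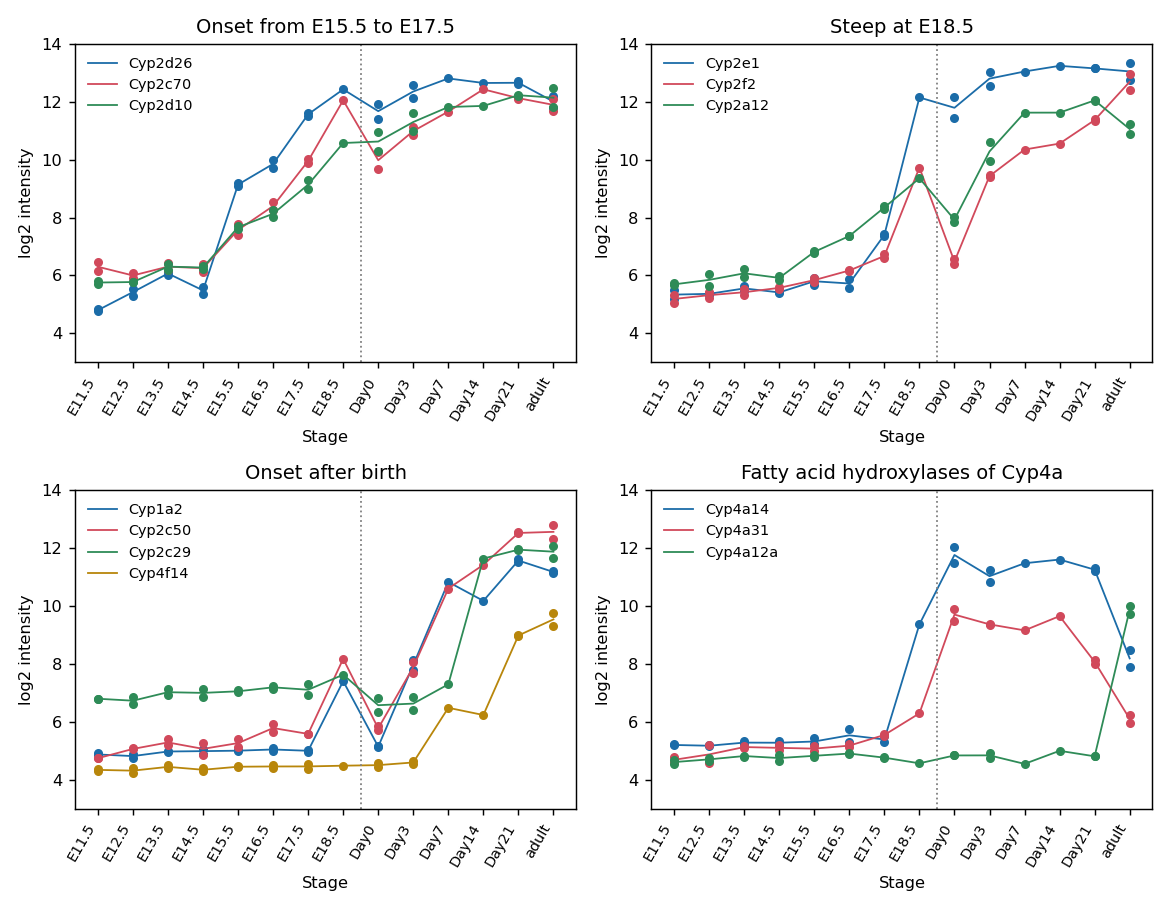
Levels (log2 intensity) of 13 members on each array, as points, by stage, with lines through the stage means and a dotted line at birth; each panel holds genes of one timing or of Cyp4a. Cyp2d26 goes from at most 5.59 at E14.5 to at least 9.09 at E15.5, Cyp2e1 from 7.43 or less at E17.5 to 12.15 at E18.5, and Cyp4a12a is high only on the adult arrays.

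Neighbouring stages show when each member moved. These steps compare single pools, and their errors come from repeat arrays alone. None of the members was called in the 3 steps up to E14.5, where 2, 8 and 1 of the 51 had an unadjusted p under 0.05 (limma). Of all genes 1.71% were higher and 1.04% lower at E12.5, 0.187% and 0.852% at E13.5, and 0.0385% and 0.0055% at E14.5. At E15.5, 5 members were higher than at E14.5 (1.29% of all genes), with Cyp2d26 12.6-fold up (3.66 ± 0.18) and Cyp2c23, Cyp2c68, Cyp2d10 and Cyp2c70 by 1.32 to 1.54 units. The step to E16.5 held no call (0.187% of all genes higher and 0.0495% lower; 7 members with an unadjusted p under 0.05). At E17.5, 5 members were higher and none lower (0.709% and 0.0385% of all genes): Cyp2d26 (1.72 ± 0.18), Cyp2e1 (1.68 ± 0.23), Cyp2c70 (1.56 ± 0.20), Cyp2c68 (1.05 ± 0.20) and Cyp2d10 (1.01 ± 0.23).

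At E18.5, 12 members were higher than at E17.5 and none lower (2.32% and 1.8% of all genes), the largest count in a single direction among the 13 steps. Cyp2e1 stood at 7.37 and 7.43 at E17.5 and at 12.15 at E18.5, a 26.9-fold step (4.75 ± 0.28). Cyp4a14 rose by 3.98 ± 0.25, Cyp2f2, known for activating naphthalene, by 3.05 ± 0.19, Cyp2c37 by 2.95 ± 0.27, Cyp2c50 by 2.59 ± 0.21, Cyp2d9 by 2.47 ± 0.19 and Cyp1a2, which oxidises caffeine and aromatic amines, by 2.41 ± 0.13. Cyp2c70, Cyp2d10, Cyp2j5, Cyp2b9 and Cyp2a12 rose by 1.01 to 2.09. The E18.5 pool has 1 array, carries the muscle RNA given earlier and differs from E17.5 in sex-linked RNA: Xist stood at 7.20 and 7.35 at E17.5 and at 10.53 at E18.5, and the Y-linked Eif2s3y at 8.04 and 7.70 against 4.59. The part of these differences in the result was not tested.

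**Figure D3:**
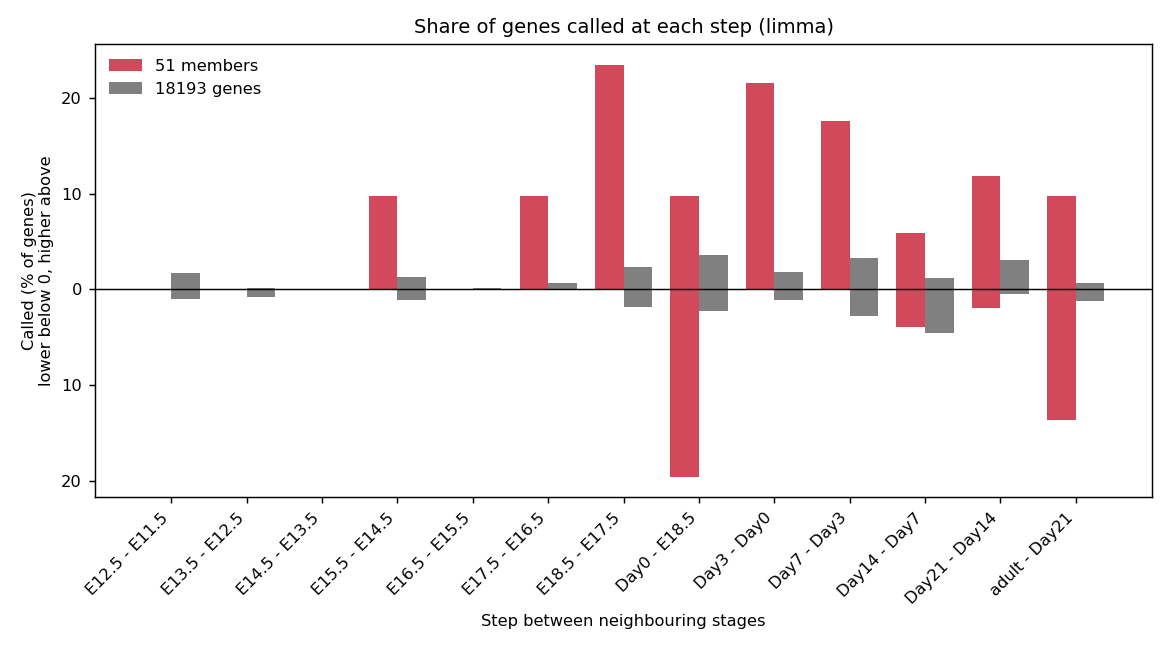
Percent of the 51 members (red) and of all 18193 genes (grey) called higher (above 0) or lower (below 0) in each of the 13 steps between neighbouring stages. Members reach 23.5% higher at E18.5 and 19.6% lower at Day0; none is called in the first 3 steps.

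At birth, Day0 minus E18.5, 5 members were higher and 10 lower (3.63% and 2.25% of all genes). The step shares its E18.5 array with the step before, so the values are given side by side with those of E17.5 and are not independent of it. Cyp2f2 stood at 6.75 and 6.60 at E17.5, at 9.73 at E18.5, at 6.58 and 6.39 at Day0 and at 9.48 and 9.39 at Day3. It was lower at Day0 by 9.49-fold (-3.25 ± 0.19) and its Day0 arrays lay below those of E17.5. Cyp1a2 stood at 4.95 and 5.04, at 7.40, at 5.13 and 5.15 and then at 8.14 and 7.78, a difference of -2.26 ± 0.13 at birth. Cyp2c50 stood at 5.58 on both arrays, at 8.17, at 5.70 and 5.84 and at 8.08 and 7.69, a difference of -2.40 ± 0.21. In each case Day0 was close to E17.5, and E18.5 and Day3 both stood higher. The other members lower at Day0 were Cyp2c70 (-2.07), Cyp2a12 (-1.43), which hydroxylates bile acids, Cyp2b9 (-1.34), Cyp2c23 (-1.22), Cyp2c68 (-1.10), Cyp4v3 (-1.06) and Cyp2c29 (-1.05).

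The members higher at Day0 were Cyp4a31, Cyp4a14, Cyp2d9, Cyp4f15 and Cyp2d22. Cyp4a31 stood at 5.58 and 5.50 at E17.5, at 6.29 at E18.5 and at 9.91 and 9.50 at Day0, a 10.7-fold step (3.41 ± 0.21). Cyp4a14 stood at 5.28 and 5.49, at 9.36 and at 12.02 and 11.50 (2.40 ± 0.25). Day0 had the highest stage mean of both genes. Day14 was close, at 9.65 for Cyp4a31 and 11.60 for Cyp4a14, and lay above their second Day0 arrays. The step was 1.98 ± 0.19 for Cyp2d9, 1.30 ± 0.31 for Cyp4f15 and 1.25 ± 0.22 for Cyp2d22. Without the first Day0 array Cyp4f15 (0.88), Cyp2c29 (-0.82) and Cyp4v3 (-0.97) were not called, and without the second Cyp2c68 (-0.86) was not. The fall of Cyp4v3 was also not called with its probe sets averaged (-0.59) or with plain sets (-0.12), that of Cyp2c68 with quantile scaling (-0.87), and those of Cyp2c29 (-0.96) and Cyp4v3 (-0.97) with hepatocyte scaling.

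The falls depended on the fetal pool that Day0 was set against, and whether E18.5 stood high or Day0 low was not tested. E17.5 differed from Day0 in sex-linked RNA, with Xist at 7.27 against 10.25 and Eif2s3y at 7.87 against 4.17. With Day0 set against E17.5 instead, 0 members were called lower and 9 higher (limma), where 1.26% of all genes were lower and 2.61% higher. Cyp1a2 (0.14), Cyp2c50 (0.19) and Cyp2c70 (0.02) turned to small positive differences, and Cyp2f2 was at -0.19. The 5 rises were called against E17.5 too, with Cyp4a14 at 6.37, Cyp2d9 at 4.45, Cyp4a31 at 4.16, Cyp4f15 at 1.50 and Cyp2d22 at 1.13. Against E17.5 Cyp2e1 (4.39) and Cyp2c37 (2.05) were called higher, though both lay below E18.5 at Day0, as were Cyp2d10 (1.49) and Cyp2b10 (1.02).

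**Figure D4:**
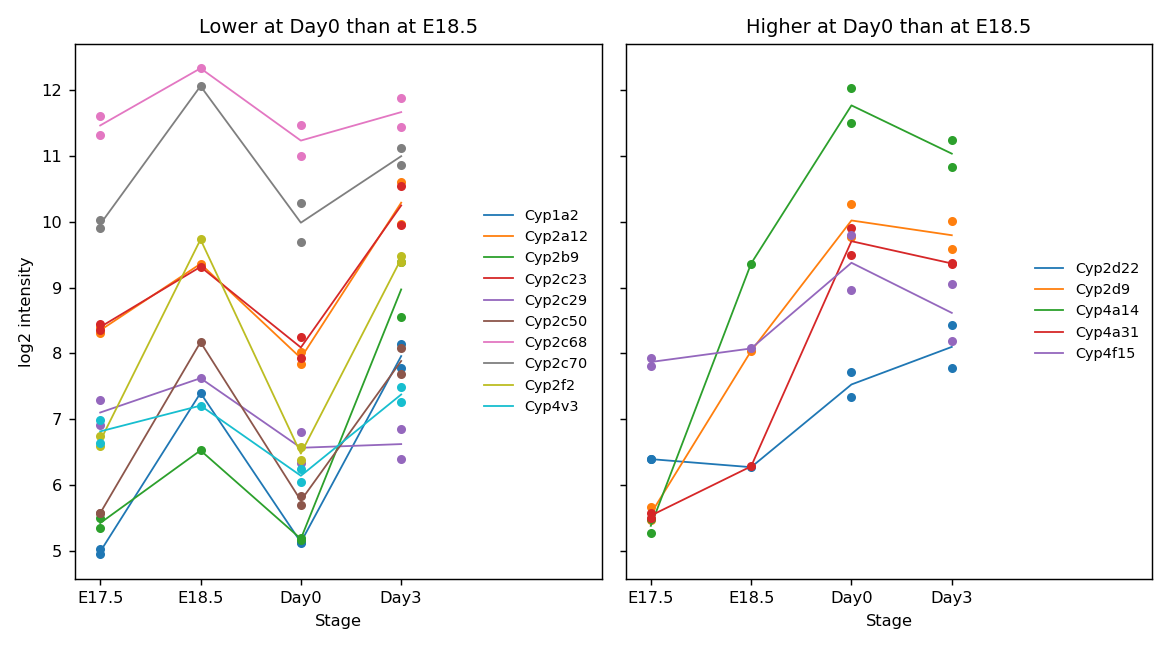
Levels (log2 intensity) of the 15 members called between E18.5 and Day0, on each array of E17.5, E18.5, Day0 and Day3 (points) with lines through the stage means. The 10 genes on the left are lower at Day0 than at E18.5, which has 1 array; the 5 on the right are higher at Day0.

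Among other genes of the system at birth, 5 of 12 PPARA targets outside the P450 genes were higher at Day0 than at E18.5 and none lower: Pdk4 (4.50 ± 0.17), a brake on glucose oxidation, Acot1 (3.12), Ehhadh (2.38), Cpt1a (1.66) and Angptl4 (1.57). The receptor gene Ppara itself differed by -0.13 ± 0.24. Of 16 regulators of P450 genes, the xenobiotic receptors Nr1i2 (1.08 ± 0.15) and Nr1i3 (1.28 ± 0.22) were higher, while Cebpa (-2.19 ± 0.23), the growth hormone receptor Ghr (-1.89 ± 0.26), Nfe2l2 (-1.72 ± 0.20) and Onecut1 (-1.62 ± 0.14) were lower. Onecut1 stood at 5.68 at E17.5, at 7.35 on the E18.5 array and at 5.73 at Day0. Cebpa (9.46 and 8.04), Ghr (8.60 and 7.52) and Nfe2l2 (8.67 and 7.53) were lower at Day0 than at E17.5 too. In the heme and electron supply list 2 of 7 were higher, Alas1 (1.23 ± 0.21), which starts heme synthesis, and Hmox1 (1.46 ± 0.22), which breaks heme down. None of 7 hepatocyte markers was called, and 4 of 6 muscle markers were lower, led by Acta1 (-4.15 ± 0.11). The part of the muscle RNA in these values was not tested.

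Suckling age was then set against the late fetal pools. Members were higher for 8 of 51 and lower for none, against 1.82% and 0.5% of all genes. They were Cyp4a14 (5.07 ± 0.84, 33.6-fold), Cyp2e1 (4.95 ± 1.10), Cyp2c37 (4.71 ± 1.01), Cyp4a31 (3.95 ± 0.37), Cyp2d9 (3.71 ± 0.61), Cyp2d10 (2.52 ± 0.51), Cyp2d22 (2.01 ± 0.19) and Cyp4f15 (1.60 ± 0.22), each with 4 and 4 pools. The count was 5 without any 1 of E15.5, E16.5, Day7 or Day14, 13 without E18.5 and 17 without Day0. With Day0 counted as late fetal 12 members were called, but Cyp2e1 (4.46), Cyp4a14 (3.90), Cyp4a31 (3.03), Cyp2d9 (2.76) and Cyp4f15 (1.25) were not. Cyp4f15 (0.93) was also not called with hepatocyte scaling. Cyp2c37 (4.04 to 4.50) and Cyp2e1 (4.27 to 4.93) lost their calls without any 1 of E15.5, E16.5, E17.5, Day7 or Day14, Cyp2e1 also without Day3, and Cyp2d10 (2.12 to 2.38) without any 1 of E15.5, E16.5, Day7 or Day14.

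Within suckling age the steps called different numbers of members. At Day3, 11 members were higher than at Day0 and none lower (1.81% and 1.1% of all genes). Cyp2b9, a steroid hydroxylase of female mouse liver, stood at 5.20 and 5.18 at Day0 and at 9.39 and 8.55 at Day3, 13.7-fold higher (3.78 ± 0.19). Cyp2c37 rose by 3.53 ± 0.22, Cyp2f2 by 2.95 ± 0.16, Cyp1a2 by 2.82 ± 0.11, Cyp2a12 by 2.36 ± 0.18, Cyp2c23 by 2.15 ± 0.20 and Cyp2c50 by 2.12 ± 0.17. Cyp4v3, Cyp2j5, Cyp2c70 and Cyp2e1 rose by 1.01 to 1.23. This step shares its Day0 arrays with the step at birth.

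At Day7, with 1 array, 9 members were higher than at Day3 and none lower (3.32% and 2.84% of all genes). Cyp1a2 went from 8.14 and 7.78 to 10.83 (2.87 ± 0.13), Cyp2c50 from 8.08 and 7.69 to 10.60 (2.72 ± 0.21) and the epoxygenase Cyp2j5 from 6.51 and 6.48 to 8.49 (2.0 ± 0.18). Cyp4f14, which degrades leukotriene B4, left its floor of 4.65 or less for 6.48 (1.89 ± 0.15). Cyp4v3, Cyp2b9, Cyp2a12 and Cyp4f15 rose by 1.08 to 1.79. Cyp1a1, the classic target of the aryl hydrocarbon receptor, stood at 8.07 on the Day7 array and at 5.13 to 5.60 on all 24 others, so that its rise (2.60 ± 0.13) was followed by a fall at Day14 (-2.72 ± 0.15). Both of its steps rest on that array. None of 4 other targets of the receptor was called in the comparisons between ages. Cyp1a1 was not called in those comparisons either, so they cannot show a change at Day7 alone. The mean of the 4 targets stood at 5.04 at Day7 against 5.03 to 5.23 elsewhere. Of these, Ahrr (4.08 to 4.31) and Aldh3a1 (4.25 to 4.72) lay near the floor at all stages.

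At Day14, with 1 array, 3 members were higher than at Day7 and 2 lower (1.16% and 4.56% of all genes). The epoxygenase Cyp2c29 was between 6.33 and 7.63 on all arrays up to Day7, at 11.64 at Day14, at 11.93 and 11.96 at Day21 and at 11.67 and 12.09 in the adult. Its step was 4.35 ± 0.26 (20.3-fold) and every array from Day14 on lay above every earlier one. Cyp2c55 rose from 4.98 to 7.03 (2.05 ± 0.16) and Cyp2c37 by 1.0 ± 0.31, and Cyp2c23 fell by 1.01 ± 0.29.

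Day21 and the adult were set against suckling age, with 2 against 4 pools. Members were higher for 5 of 51 and lower for 1, against 0.588% and 0.451% of all genes. Cyp4f14 stood at 4.50, 4.59, 6.48 and 6.23 from Day0 to Day14, at 8.98 at Day21 and at 9.54 in the adult, a difference of 3.81 ± 0.47 (14.0-fold; limma, adjusted p = 0.0019). Cyp2d22 (1.87 ± 0.23), Cyp2r1 (1.64 ± 0.19), the pseudogene Cyp2d13 (1.62 ± 0.25) and Cyp4f13 (1.11 ± 0.23) were also higher, and Cyp4a31 was lower (-2.38 ± 0.45). With Day21 counted at suckling age, Cyp4a12a (5.07) was the 1 member called higher. The count was 8 without Day14. Cyp2d13 lost its call without the adult (1.13), Cyp4a31 without Day0 (-2.30), Day3 (-2.42) or the adult (-1.40), and Cyp4f13 without any 1 of E12.5 to E17.5, Day3, Day7 or the adult (0.79 to 1.18). With Day0 counted as late fetal Cyp2d22 (1.70), Cyp4f13 (1.24) and Cyp4a31 (-2.30) were not called, nor was Cyp4a31 with probe sets averaged (-1.62). Cyp4f13 was also not called with first arrays (0.86), without the 3 stages that have 1 array (0.81) or with hepatocyte scaling (1.20).

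At Day21, 6 members were higher than at Day14 and 1 lower (3.03% and 0.528% of all genes). Cyp4f14 rose by 2.75 ± 0.15, Cyp2b13 from 6.84 to 9.53 and 8.99 (2.42 ± 0.17), Cyp2d22 by 1.66 ± 0.22, Cyp1a2 by 1.39 ± 0.13, Cyp2r1 by 1.17 ± 0.22 and Cyp2c50 by 1.10 ± 0.21. Cyp4a31 fell by 1.58 ± 0.21 on the probe set used. Its second probe set instead stood higher at Day21 (7.40) than at Day14 (6.13).

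Between Day21 and the adult 5 members were higher and 7 lower (0.61% and 1.2% of all genes), and these held the 2 largest differences of any step, those of Cyp2b9 and Cyp4a12a. Cyp2b9 stood at 11.02 and 11.08 at Day21 and at 5.51 and 5.24 in the adult, 51.1-fold lower (-5.68 ± 0.19) where the arrays up to E17.5 had 4.92 to 5.51. Cyp2b13 stood at 9.53 and 8.99 and at 5.72 and 5.66, 11.9-fold lower (-3.57 ± 0.14). Both genes, whose promoters were printed as a pair, are known as female-predominant in adult mice; Cyp2b9 was high from Day3 and Cyp2b13 at Day21 alone. Cyp4a12a, a male-predominant arachidonic acid hydroxylase, stood between 4.54 and 4.99 on all 23 arrays before the adult and at 9.73 and 10.01 there, 33.5-fold higher (5.06 ± 0.10). Cyp2d9 stood at 9.84 and 9.58 and at 11.78 and 11.81 (2.09 ± 0.15), Cyp2c54 at 9.09 on both arrays and at 11.67 and 12.37 (2.93 ± 0.36), and Cyp2f2 (1.32 ± 0.16) and Cyp2c23 (1.22 ± 0.20) were higher too. Lower were also Cyp4a14 (-3.07 ± 0.21), Cyp4a31 (-1.97 ± 0.17), Cyp2c55 (-1.84 ± 0.11), Cyp2c68 (-1.16 ± 0.20) and Cyp2c37 (-1.15 ± 0.22).

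The pools of this step differed in sex-linked RNA. Xist, expressed from the inactive X chromosome of females, stood at 10.17 and 10.37 at Day21 and at 6.83 and 7.04 in the adult (-3.33 ± 0.18), and Eif2s3y at 4.27 and 4.02 and at 6.51 and 7.90 (3.06 ± 0.30). Eif2s3y was at least 6.51 on the arrays of E12.5, E13.5, E16.5, E17.5 and the adult and at most 5.19 on all others, so every pool from E18.5 to Day21 was on the low side. Age and the sex-linked difference cannot be told apart in this step. Without the second adult array Cyp2c23 (0.87) was not called, and without the first Cyp2c37 (-0.78) and Cyp2c68 (-0.85) were not. Cyp2c37 also lost its call without the first Day21 array (-1.07), and with hepatocyte scaling Cyp2c37 (-0.93) and Cyp2c68 (-0.94) were not called. Without the first adult array 9 members were called higher in place of 5.

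**Figure D5:**
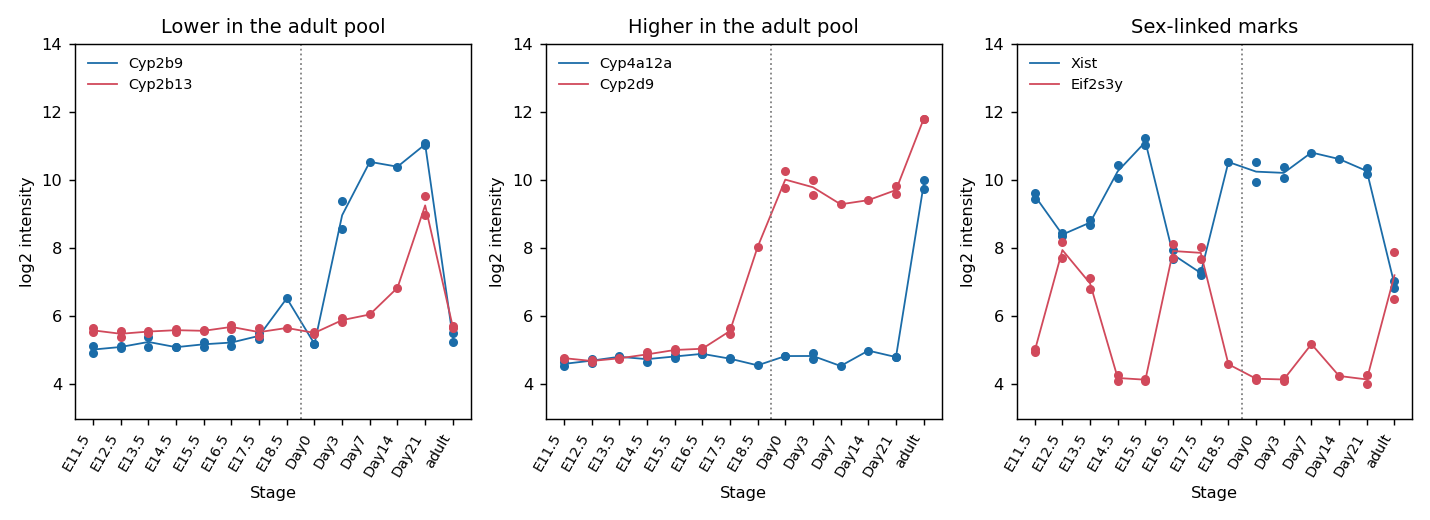
Levels (log2 intensity) on each array (points) with lines through the stage means and a dotted line at birth, for 2 members lower in the adult, 2 members higher in the adult, and the sex-linked genes Xist and Eif2s3y. From Day21 to the adult Cyp2b9 and Xist fall while Cyp4a12a and Eif2s3y rise; Eif2s3y is low at every stage from E18.5 to Day21.

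A curve over all 14 stages, which can also find members that rise and fall again, called 31 of 51, against 29.8% of all genes. The test was the limma F test of a natural spline, with at least 1 unit of fitted range. Cyp1a1 (adjusted p = 0.46) and Cyp2b13 (adjusted p = 0.18), which rose and fell again, were not called by this F test. The median fitted range was 2.05 units over the members and 0.56 over all genes. Outside the P450 genes, postnatal pools had 10 of 16 regulators higher and none lower, among them Nr1i3, Nr1h4, Ppara and Ahr, with a median of 1.28. Of 12 PPARA targets 9 were higher, with a median of 1.64, and of 7 genes of electron supply and heme Alas1, Cyb5a and Pgrmc1 were higher and Fech, the last enzyme of heme synthesis, was lower. Of the hepatocyte markers 5 of 7 were higher (median 1.29) and of the red cell markers 7 of 10 lower (median -2.86). The part of these shifts in the members' values was not tested.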

How the data were processed

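The authors deposited intensities on a linear scale, from 25 arrays. RMA is named per the submitters' processing notes, with version and scaling not given in the sources used here. Log2 was taken of each intensity. Of 45101 probe sets 34958 carry a single gene symbol, and the brightest set on average across the stages stood for its gene. The 64 control sets were left out, and 18193 genes remained. Probes of close P450 copies may cross-hybridise, and signal near the floor limits what low members can show.

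Repeat arrays were averaged for the comparisons of age groups and the spline with 3 degrees of freedom (limma 3.58.1 in R 4.3.3, with the package data.table at version 1.17.8). The 13 steps were fitted to all 25 arrays, so their errors and p-values measure only the spread between repeat arrays of 1 pool, and single arrays are taken to scatter as the repeated ones do. Fits were tested on simulated data. Promoters were aligned with Biopython 1.88. Alternatives covered scaling, probe sets, dim genes, variance models, repeat arrays, stage boundaries and pools left out. The hepatocyte scaling, the omission of E18.5 from onsets and Day0 against E17.5 were chosen after seeing the data. The members and 13 gene lists were chosen with earlier results of these data known. Values on every array follow a rule on range and called changes; Cyp1a1, Cyp2c29 and Cyp2c55 were added after their values were seen. Other members are named with their tests.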

Additional observations from a re-analysis of the deposited data

Results flagged for a closer look

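Pools that stood apart from the others of their age group were sought in 150 tests with Dixon's criterion (95% level), and 25 met it. For unselected values chance meets it in about 1 of 20. The tests covered only members with an onset, with a call between ages or chosen for their values. Cyp1a1 and Cyp4a12a had an onset only through the pool then flagged, so the 25 cannot be set against that share. The tests also share pools and are not independent. The pool of E18.5 accounted for 13 of the 25, as the highest of the fetal pools. Within the late fetal pools these were Cyp1a2 (7.40), Cyp2c37 (7.48), Cyp2j5 (5.92) and Cyp4a14 (9.36), which also stood apart among all 8 fetal pools. Among the 8 fetal pools Cyp2b9 (6.53), Cyp2c50 (8.17), Cyp2d9 (8.04), Cyp2e1 (12.2) and Cyp2f2 (9.73) did so too. In the early fetal pools Cyp2c70 was low at E12.5 (6.00) and Cyp4f13 low at E11.5 (4.91).

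At suckling age Cyp1a1 stood apart at Day7 (8.07), also among all postnatal pools, and Cyp2c29 (11.6) and Cyp2c55 (7.03) at Day14. Among the postnatal pools Cyp2e1 (11.8) and Cyp2c37 (6.58) were lowest at Day0 and Cyp2b13 was highest at Day21 (9.26). In the adult pool Cyp2d9 (11.8) and Cyp4a12a (9.87) were highest and Cyp4a14 (8.19) lowest.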

How the results depend on the processing

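Counts of members were within 1.5 times the reported ones in 337 recomputed counts and further off in 36. The latter follow, and their cause was not tested. Centring on the hepatocyte markers, which moved the median of all genes by -1.68 after birth and by -2.10 in the late fetal pools, gave 21 members lower after birth, 2 higher and 36 lower in the late fetal pools, 50 in the spline, 8 higher in the adult step and 60 falls in the neighbouring steps (20 as reported). It changed the sign of 23 of 51 postnatal and 42 of 51 late fetal differences, 0 of them called as reported. Among the members named with values or called, and called lower under this scaling, were Cyp1a1 (-1.12) and Cyp2d13 (-1.30) after birth, and in the late fetal pools Cyp1a1 (-1.97), Cyp2b13 (-2.04), Cyp2c29 (-1.74), Cyp2c54 (-1.72), Cyp2c55 (-2.01), Cyp2d13 (-1.97), Cyp2d22 (-1.39), Cyp2j5 (-1.61), Cyp2r1 (-1.96), Cyp2s1 (-1.99), Cyp4a12a (-2.05), Cyp4a31 (-1.52), Cyp4f13 (-1.94), Cyp4f14 (-1.99) and Cyp4f15 (-1.51). Housekeeping scaling moved the median of all genes by 0.12 after birth, 0.30 in late fetal pools, -0.10 at suckling age, 0.20 at Day21 and adult and -0.12 at birth. Of all called genes 35.4% were higher in late fetal pools as deposited, 55.4% with quantile and 73% with housekeeping scaling, 61.7%, 52.5% and 46.1% were higher at birth and 78.4%, 60.4% and 59.7% at suckling age; the counts of members stayed within 1.5 times.

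With early fetal pools ending at E13.5, 0 members were higher in the late fetal pools. For suckling age the omission of single pools gave 5 to 17. For Day21 and adult 3 were higher among genes reaching 7, 13 without the 3 stages with 1 array, 4 to 8 with single pools left out, 3 with Day0 counted as late fetal and 1 with Day21 at suckling age. For the same comparison 0 were lower with probe sets averaged, 0 to 1 with single pools left out and 0 with Day0 counted as late fetal. Against E17.5 the step at birth held 9 higher and 0 lower. The sign differed from that against E18.5 for 26 of 51 members, and of those called in either step these were Cyp1a2 (0.14), Cyp2c37 (2.05), Cyp2c50 (0.19), Cyp2c70 (0.024) and Cyp2e1 (4.39). The adult step held 2 higher with plain probe sets and 4 to 9 without single arrays. Onsets at 25% of the range numbered 1 early fetal, 18 late fetal, 7 at suckling age and 1 later; at 75%, 4 late fetal and 9 later; at 0.5 of the highest intensity, 3 late fetal and 10 later; without E18.5, 5 late fetal. Same-numbered arrays deviated together with r over 0.1 in 38 of 55 pairs of stages (median 0.40, range -0.57 to 0.73), but not in all, and the labels name no shared batch, so the numbers were not taken to pair the arrays. With the replicate block 5 members were higher and 10 lower at birth, 5 and 7 in the adult step, and 61 and 20 calls were made over all steps.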

Other observations

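Several close relatives of the members were measured only through probe sets that match more than 1 gene and lie outside the 51. The set shared by Cyp2a5 and Cyp2a4, coumarin and steroid hydroxylases, stood at 4.97 at E11.5, at 8.23 at Day0, at 6.31 at Day7, at 11.39 at Day21 and at 11.73 in the adult. The set shared by Cyp4a31 and Cyp4a10, fatty acid hydroxylases, stood at 5.28 at E17.5, at 10.24 at E18.5, at 11.57 at Day0 and at 11.11 in the adult, where the set of Cyp4a31 alone stood at 6.10. The set shared by Cyp4f37 and Cyp4f16 lay between 4.29 and 4.90 at all stages. No comparison was run on these 3 sets.

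Second probe sets differed from those used for some members. The second set of Cyp4v3 correlated with the first across the 14 stages at r = 0.89 but stood at 5.09 at Day7, where the first stood at 9.16, and reached 8.22 at Day21. That of Cyp4a31 stood at 8.02 at Day0, at 5.96 at Day7, at 6.13 at Day14 and at 7.40 at Day21. The first set stood at 9.70, 9.16, 9.65 and 8.07, so the sets moved in opposite directions from Day14 to Day21. That of Cyp2d13 stood at 4.71 at Day14, at 6.79 at Day21 and at 7.67 in the adult, and both sets of Cyp2d22 correlated at r = 0.98.

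Cell type markers other than those of hepatocytes, red cells and muscle were compared between fetal and postnatal pools in the same way as the members (limma). Higher after birth were 2 of 6 macrophage markers (Clec4f and Vsig4), 1 of 6 endothelial markers (Stab2), 1 of 6 stellate markers (Dcn), 0 of 4 bile duct markers and 1 of 12 housekeeping genes (B2m), and none of these lists held a gene called lower. Of the 4 sex-linked genes 0 were called in that comparison, and neither these nor the bile duct markers held a gene with an unadjusted p under 0.05 (limma). That does not show balance, as Eif2s3y was high at E12.5, E13.5, E16.5 and E17.5 and after birth in the adult alone.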
